A study of Mus musculus with 6 samples.

Results

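The 10 genes Fos, Fosb, Fosl1, Fosl2, Jun, Junb, Jund, Egr1, Atf3 and Ier2 were followed in RNA-seq of colon intestinal epithelial cells (IECs) from mice given dextran sulfate sodium (DSS). They were chosen by symbol as immediate early and AP-1 genes. The choice rule uses no measured value but was made with earlier results of these data known. All 10 were found among the 55487 genes of the count table. The 6 libraries came from 3 Nsd2 f/f mice, which carry floxed alleles of Nsd2 and no Cre, and 3 Nsd2 Vil-KO mice, which carry the same floxed alleles with Cre driven by the Villin promoter. Nsd2 encodes a histone methyltransferase that places H3K36me2, and Villin-Cre acts in the epithelium of the intestine, so other cells of the colon keep the gene. Both genotypes were on a C57BL/6J background and received DSS, which injures the colon lining, at 2% in the drinking water from 2 months of age. The labels give no sex, and no library without DSS was analysed here. The sample titles call the controls WT and the others NSD2-FF-VILCRE, while the genotype label of the controls reads NSD2-FF. That the controls carry no Cre was read from these labels and the methods. The libraries are called f/f 1 to 3 and Vil-KO 1 to 3 here, after the replicate numbers in the titles, so f/f 3 is the library titled WT-3. Nothing in the labels says how the replicates were collected, so the p-values measure only the spread between these libraries.

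Immediate early genes are transcribed within minutes of a growth factor, cytokine or stress signal, without need of new protein. Kinases of the ERK, JNK and p38 pathways activate factors such as SRF, ELK1 and CREB that are already on their promoters, and the transcripts then decay quickly. Fos and Jun family proteins pair through leucine zippers to form AP-1, which binds TGANTCA sites, while ATF3 belongs to the related ATF family, EGR1 is a zinc finger factor and IER2 is a small nuclear protein. In the colon epithelium these genes respond to injury, and they also respond to warm, mechanical or enzymatic cell isolation, for which they serve as readouts of handling. The IECs were released by incubation with EDTA at 37 °C, followed by shaking in buffer, and times from tissue to lysis were not analysed here, so injury in the mouse and stress after isolation cannot be told apart.

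The libraries held between 15439123 and 20350539 counted reads. Nsd2 was at 47.9 CPM (reads scaled to library size with TMM factors) in f/f 1, 51.2 in f/f 2 and 24.6 in f/f 3, and at 24.2, 10.4 and 20.8 CPM in Vil-KO 1 to 3. The library labelled WT-3 (f/f 3) thus held about as much Nsd2 as Vil-KO 1. The log2 fold change of Nsd2 was -1.16 (SE 0.39, unadjusted p = 0.0217 in edgeR's quasi-likelihood test, exact two-sided permutation p = 0.1), and it was -1.04 without f/f 1 and -0.97 without f/f 2, each of which ended the call, as did scaling by library size alone (-1.12). Vil-KO 2 and the library labelled WT-3 stood apart from the other 4: Xist, the transcript of the inactive X chromosome, was at 204.4 and 347.1 CPM in them and at most at 0.255 CPM elsewhere. Mitochondrial transcripts took 19.6% of reads in f/f 3 and between 5.51% and 9.13% in the others. The epithelial markers summed to between 12318 and 20948 CPM in the f/f libraries and between 14447 and 16505 CPM in the Vil-KO libraries, and all 11 of them were detected. The 11 leukocyte markers summed to 775, 153.5 and 25.9 CPM in f/f 1 to 3 and to 174.8, 997 and 65.6 CPM in Vil-KO 1 to 3, and their part in the results was not tested. In Vil-KO 2 most of that sum was S100a8 at 574 CPM and S100a9 at 405 CPM, both used as neutrophil markers. Csf3r, a further marker of neutrophils, was at 0.666 CPM there, the lowest of the 6 libraries. Ptprc, the pan-leukocyte marker, was at 5.71 CPM in Vil-KO 2. In bulk RNA, fewer cells of a type and less RNA per cell cannot be told apart.

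Promoter sequences show the kind of element through which such genes are switched on. Of the 10 members, 7 had a promoter in the RefSeq table of GRCm38.p6, namely Fos, Fosb, Fosl2, Jun, Junb, Jund and Atf3. Windows of 250 bases before the RefSeq start were searched on both strands for TGACGTCA (the CRE, bound by CREB and ATF proteins), for TGACG, which lies within it, for the AP-1 site TGANTCA, for the TATA box sequence TATAAA, for the sequence CCAAT and for the CArG box of SRF. The 150 bases before the start are shown, 5′ to 3′, for Fos, which was higher in every Vil-KO library than in any f/f library, and for Junb, the member with the highest median level per length. Capitals mark TGACG and TATAAA.
Fos, chr12:85473740-85473889, plus strand: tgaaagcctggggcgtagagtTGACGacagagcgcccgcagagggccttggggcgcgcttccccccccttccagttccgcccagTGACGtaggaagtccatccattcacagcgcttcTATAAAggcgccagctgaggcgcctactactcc
Junb, chr8:84978749-84978898, minus strand: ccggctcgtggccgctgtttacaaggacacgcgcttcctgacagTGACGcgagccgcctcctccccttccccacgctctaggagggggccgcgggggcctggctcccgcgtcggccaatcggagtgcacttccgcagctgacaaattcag
The Fos promoter held TGACG at 129 to 125 and at 66 to 62 bases before the start, and TATAAA at 33 to 28 bases. The Junb promoter held TGACG at 106 to 102 bases and CCAAT at 36 to 32 bases. TGACG was also found for Fosb at 60 to 56 bases and, on the other strand, for Atf3 at 7 to 3 bases, and CCAAT for Jun at 65 to 61 bases. Of 32851 windows of this length, 17.8% held TGACG, 12.4% TATAAA and 33.8% CCAAT. The letters TGACGTCA (1.55% of all windows), TGANTCA (6.75%) and the CArG box (1.47%) were in none of the 7 windows. Sites farther upstream were not searched, nor were promoters of Fosl1, Egr1 and Ier2. The windows thus cannot show that a gene lacks an element.

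Within the libraries the members spanned a wide range of levels. Per length (TPM, the share of reads per exon base scaled to a fixed total), the median over 6 libraries was 293 TPM for Junb, 232 for Ier2, 198 for Fos, 107 for Jun, 103 for Jund, 42.0 for Fosl2, 35.6 for Atf3, 10.6 for Egr1, 0.921 for Fosb and 0.406 for Fosl1. Ier2 was above Fos, Fos above Jun, Jund above Fosl2 and Egr1 above Fosb in 6 of 6 libraries. Junb was above Ier2 in 4 of 6 libraries and Jun above Jund in 3 of 6, so neither of these neighbours could be ordered. Each of the other neighbours kept its order in 5 of 6 libraries. Junb, Ier2, Fos, Jun and Jund therefore made up the abundant part of the group, and Fosb and Fosl1 were the least abundant.

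**Figure D1:**
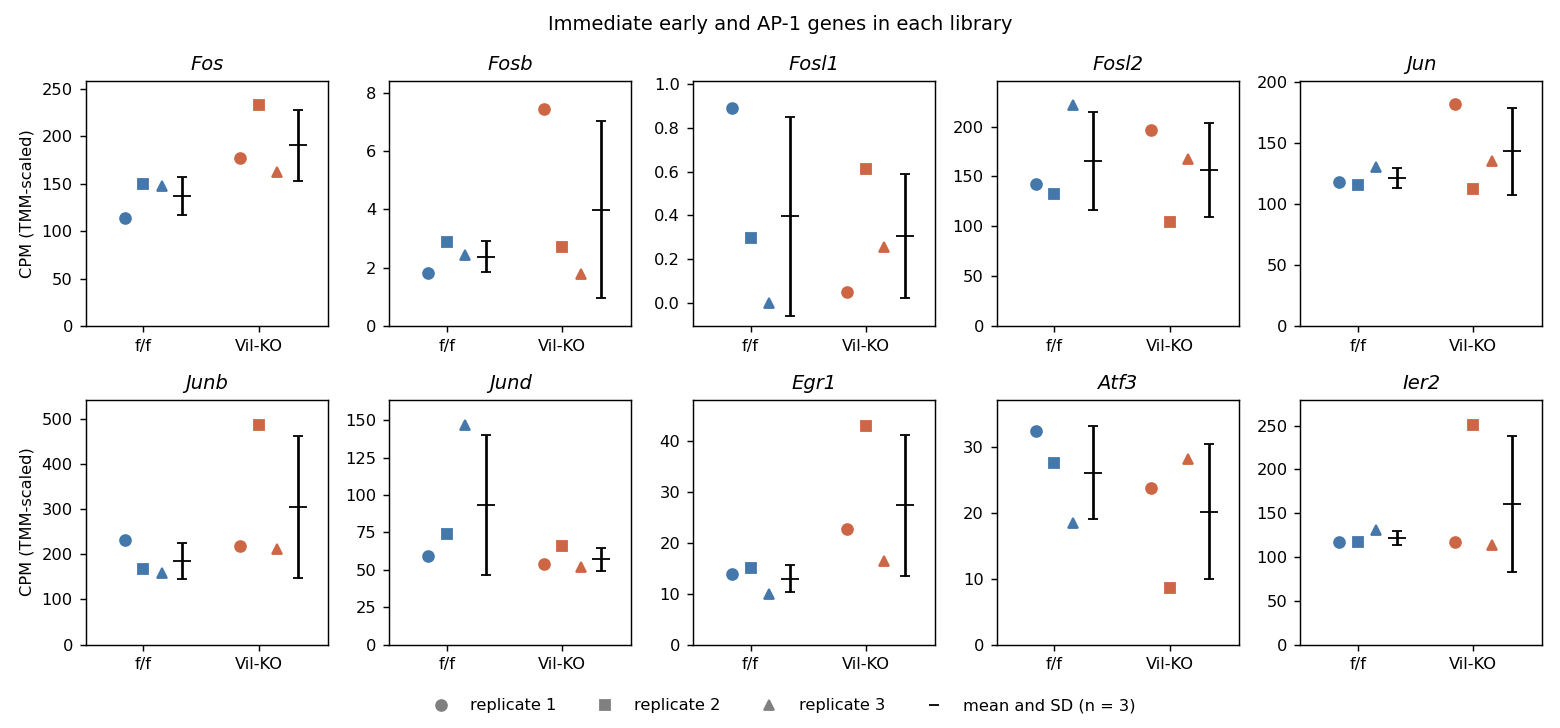
TMM-scaled CPM (vertical axes, each from 0 or just below) of the 10 members in each library, with blue points for f/f, orange points for Vil-KO, a symbol for each replicate number, and the mean with SD of 3 libraries in black. Egr1 and Fos are the only members whose 3 Vil-KO points lie above all 3 f/f points, and Vil-KO 2 (square) is far above the rest for Junb, Egr1 and Ier2.

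The comparison of genotypes asked whether the Vil-KO libraries, in which Nsd2 was lower but still present, held more or less of these transcripts. The screening criterion asked for a change of more than 1.2-fold together with p under 0.05, before adjustment, in edgeR's quasi-likelihood test. Of 14650 genes tested, 482 passed it (3.29%), with 241 higher and 241 lower in Vil-KO (1.65% each). Of the 9 members tested, 1 passed it (11.1%), namely Egr1, which was higher in Vil-KO. At this group size 1 member is also all that separates that share from 0. At an adjusted p below 0.05, 0 of 9 members and 0 of 14650 genes (0%) were called by edgeR, against 482 genes with an unadjusted p below 0.05, and DESeq2 called 4 genes, none of them a member. The adjusted p in edgeR was 0.992 for 8 members and 0.999 for Fosl2. The median log2 fold change of the 9 members was 0.40, against 0.0012 over all genes tested, with 6 members above 0 and 3 below. That median was 0.030 without Vil-KO 1 and 0.21 without Vil-KO 2. Libraries of the genotypes did not overlap for 2 of the 9 members, both higher in Vil-KO, whereas 5.21% of all genes tested were higher without overlap and 4.7% lower. With 3 libraries against 3, an exact permutation test cannot give a two-sided p below 0.1.

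**Figure D2:**
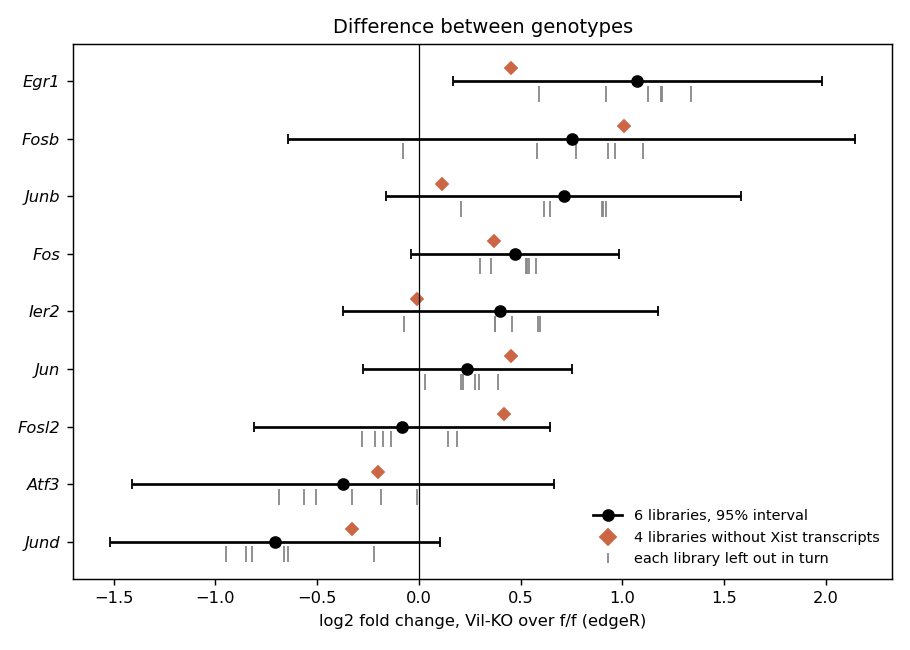
Log2 fold change of Vil-KO over f/f (horizontal axis) for the 9 members tested, with black points and bars for the edgeR estimate from 6 libraries and its 95% interval, diamonds for the 4 libraries without Xist transcripts, and ticks for each library left out in turn. Only the interval of Egr1, from 0.17 to 1.98, lies above 0, and its estimate is 0.45 in the 4 libraries.

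Egr1, at chromosome 18, 34859823 to 34864984 (plus strand, GRCm38, as for all positions of genes here), encodes a transcription factor induced by ERK and SRF that itself switches on repair and inflammatory genes. It was at 13.9, 15.0 and 9.94 CPM in f/f 1 to 3 and at 22.8, 42.9 and 16.3 CPM in Vil-KO 1 to 3. The genotypes did not overlap, although f/f 2 and Vil-KO 3 lay close together and Vil-KO 2 was nearly double the next library. The fold change was 2.11 (95% interval 1.12 to 3.95, log2 1.07, SE 0.38, unadjusted p = 0.0263), and the exact two-sided permutation p was 0.1. Without Vil-KO 2 the log2 fold change was 0.59, without the library labelled WT-3 it was 0.92, and without f/f 1 it was 1.13, and each of these omissions ended the call. In the 4 libraries without Xist transcripts it was 0.45 (SE 0.20), which did not pass the criterion.

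Fos, at chromosome 12, 85473890 to 85477273 (plus strand), is the prototype immediate early gene and gives AP-1 its transactivating partner. It was at 114.2, 150.0 and 147.9 CPM in f/f 1 to 3 and at 176.9, 233.2 and 161.9 CPM in Vil-KO 1 to 3. All Vil-KO libraries were above all f/f libraries, with Vil-KO 3 the closest to f/f 2. The fold change was 1.39 (95% interval 0.973 to 1.98, log2 0.47, SE 0.22, p = 0.0658), which did not pass the criterion, and the exact permutation p was 0.1. The log2 fold change lay between 0.30 and 0.58 under the 17 alternatives tried. In the 4 libraries without Xist transcripts it was 0.37 (SE 0.15), past the criterion, as were 11% of all genes in that fit.

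The other Fos family members gave no common direction. Fosb, at chromosome 7, 19302696 to 19310051 (minus strand), encodes another inducible Fos protein. It was at 1.83, 2.90 and 2.42 CPM in f/f 1 to 3 and at 7.46, 2.72 and 1.79 CPM in Vil-KO 1 to 3. One library, Vil-KO 1, was high and the other 5 lay between 1.79 and 2.90 CPM, and the log2 fold change was 0.75 (SE 0.59) with Vil-KO 1 and -0.08 without it. Fosl2, at chromosome 5, 32135801 to 32157842 (plus strand), encodes FRA-2, a Fos protein without the strong activation domain of FOS. It was at 142, 132.5 and 221.6 CPM in f/f 1 to 3 and at 197, 104.2 and 167.7 CPM in Vil-KO 1 to 3. The genotypes overlapped over nearly their whole range, and the log2 fold change was -0.08 (95% interval -0.81 to 0.65). The sign of the Fosl2 difference turned in the 4 libraries without Xist transcripts, where it was 0.42 (SE 0.13) and passed the criterion. In that fit 11% of all genes passed.

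Fosl1, at chromosome 19, 5447547 to 5455946 (plus strand), encodes FRA-1, a delayed Fos protein linked to wound edges and migrating cells. It had 18, 5 and 0 counts in f/f 1 to 3 and 1, 11 and 5 counts in Vil-KO 1 to 3, too few for the filter on low counts. A count of 0 in f/f 3 allows a level of up to 0.242 CPM (3 counts), and the counts spread as widely within f/f as over all 6 libraries. Tested without the filter, its log2 fold change was -0.57 (SE 0.99). Fosl1 shares 1163 exon bases with Ccdc85b on the opposite strand, and the sources used here do not say whether counting used strand. Ccdc85b had between 238 and 583 counts per library.

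Junb, at chromosome 8, 84974484 to 84978718 (minus strand), encodes a Jun protein that is induced with Fos and restrains JUN at many targets. It was at 231.9, 167.2 and 159.3 CPM in f/f 1 to 3 and at 218.3, 486.1 and 210.7 CPM in Vil-KO 1 to 3. Vil-KO 2 was more than double any other library, and f/f 1 lay above the other two Vil-KO libraries. The log2 fold change was 0.71 (SE 0.37) and did not pass the criterion, and it was 0.21 without Vil-KO 2 and 0.11 in the 4 libraries without Xist transcripts. Junb shares 173 exon bases with Prdx2 on the opposite strand, which had between 1959 and 2494 counts per library.

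Jun, at chromosome 4, 95049034 to 95052222 (minus strand), is the target of JNK and the main transactivating Jun protein. It was at 117.9, 115.4 and 130.4 CPM in f/f 1 to 3 and at 181.9, 112.0 and 135.2 CPM in Vil-KO 1 to 3. The f/f libraries lay within 1.13-fold of each other, and the Vil-KO libraries spanned 1.62-fold on both sides of them. The log2 fold change was 0.24 (SE 0.22), not past the criterion, and 0.03 without Vil-KO 1. In the 4 libraries without Xist transcripts it was 0.45 (SE 0.16) and passed the criterion, as did 11% of all genes in that fit. Jun shares 232 exon bases with the antisense gene Junos, which had between 11 and 30 counts per library.

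Jund, at chromosome 8, 70698949 to 70700616 (plus strand), encodes the Jun protein that most cells keep at rest and that dampens growth. It was at 59.3, 74.1 and 146.6 CPM in f/f 1 to 3 and at 53.6, 66.0 and 51.8 CPM in Vil-KO 1 to 3. The library labelled WT-3 was nearly double the next one, and only Vil-KO 2 exceeded any f/f library. The log2 fold change was -0.71 (SE 0.34), not past the criterion. It was -0.22 without f/f 3 and -0.95 without f/f 1, and in the latter fit it passed the criterion, as did 3.12% of all genes. In the 4 libraries without Xist transcripts it was -0.33 (SE 0.14) and passed the criterion, as did 11% of all genes in that fit. Jund shares 877 of its 1668 exon bases with the antisense gene Gm11175, which had 0 counts in every library. The sources used here do not say how reads in shared bases were counted. The level per length of Jund rests on all 1668 bases.

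Atf3, at chromosome 1, 191170296 to 191218039 (minus strand), encodes a repressor of the stress response that is induced by many kinds of damage. It was at 32.5, 27.6 and 18.4 CPM in f/f 1 to 3 and at 23.8, 8.65 and 28.2 CPM in Vil-KO 1 to 3. Vil-KO 2 was the lowest and f/f 1 the highest, with the rest in between, and the log2 fold change was -0.37 (SE 0.44), which did not pass the criterion. Without Vil-KO 2 the difference in Atf3 was -0.0090. Ier2, at chromosome 8, 84661331 to 84662852 (minus strand), is induced early by growth factors. It was at 116.6, 117.2 and 130.9 CPM in f/f 1 to 3 and at 117.0, 250.7 and 114.0 CPM in Vil-KO 1 to 3. Every library but Vil-KO 2 lay between 114.0 and 130.9 CPM. The log2 fold change of Ier2 was 0.40 (SE 0.33) with Vil-KO 2 and -0.07 without it.

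One library weighed on several members at once. Vil-KO 2 was the highest of the 6 libraries for 4 of the 9 members tested (Fos, Junb, Egr1 and Ier2) and the lowest for 3 (Fosl2, Jun and Atf3). On the log2 CPM scale, centred on each gene's mean over the 6 libraries, Vil-KO 2 was at 1.25 for Egr1, 1.10 for Junb, 0.90 for Ier2 and 0.54 for Fos, but at -1.30 for Atf3 and -0.58 for Fosl2. Vil-KO 1 was highest for Fosb (1.38) and Jun (0.48). The high values in the Vil-KO group therefore came from different libraries for different members. In the other Xist-positive library, f/f 3, Egr1 was the lowest of 6 (-0.84) and Jund the highest (1.06).

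**Figure D3:**
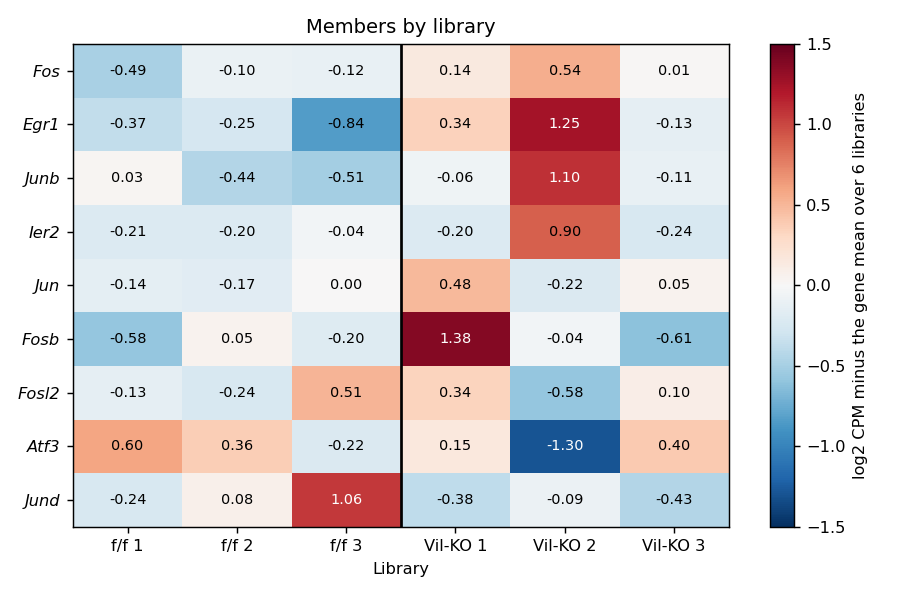
Log2 CPM of the 9 members tested, minus each gene's mean over the 6 libraries (colour scale and printed values), with f/f libraries left of the black line and Vil-KO libraries right of it. Vil-KO 2 holds high values, such as 1.25 for Egr1, and the lowest, -1.30 for Atf3, while the highest is 1.38 for Fosb in Vil-KO 1.

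Because f/f 3 and Vil-KO 2 differ from the others in scaling, the members were also compared within each library. These 11 measures, and the further ratios to Jund, were chosen after the values were seen. Jund made up 20.5%, 29.0% and 44.4% of the Jun family level per length in f/f 1 to 3 and 17.5%, 13.8% and 18.8% in Vil-KO 1 to 3. The mean was 31.3% ± 12.1 (SD, n = 3) in f/f and 16.7% ± 2.58 (SD, n = 3) in Vil-KO, the groups did not overlap, and the exact permutation p was 0.1. The difference of -14.6 percentage points was -8.04 without f/f 3 and -6.61 in the 4 libraries without Xist transcripts. Junb made up 58.2%, 47.4% and 35.0% in f/f 1 to 3 and 51.6%, 73.9% and 55.5% in Vil-KO 1 to 3, and Jun between 12.3% and 31.0% in all 6. Neither of these shares separated the genotypes.

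**Figure D4:**
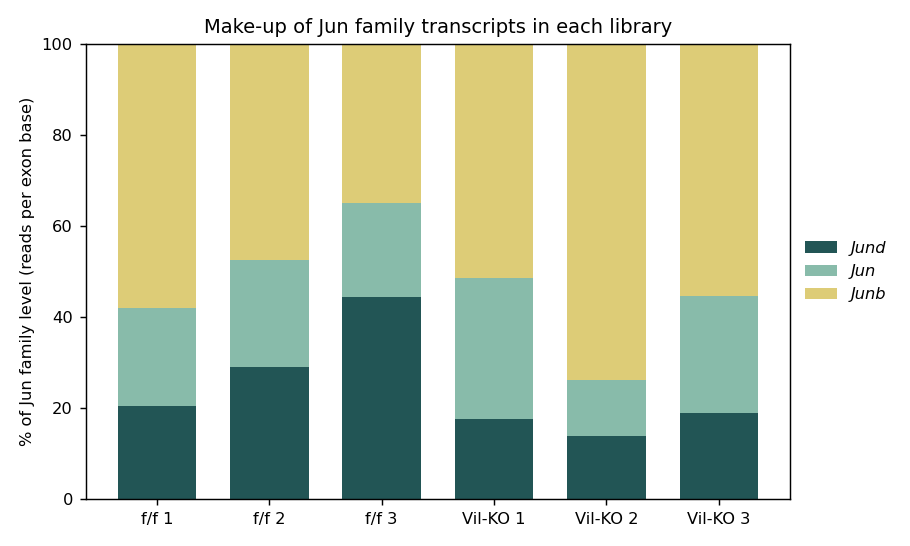
Share of Jund, Jun and Junb in the summed Jun family level (reads per exon base, vertical axis in percent) in each of the 6 libraries. The Jund share is between 20.5% and 44.4% in the f/f libraries and between 13.8% and 18.8% in the Vil-KO libraries.

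Reads per Jund read were compared for the other 8 members tested, and the genotypes split for some of them only. The log2 ratio of Fos to Jund reads was 0.95, 1.02 and 0.01 in f/f 1 to 3 and 1.72, 1.82 and 1.64 in Vil-KO 1 to 3. The Vil-KO libraries lay close together and above every f/f library, with a difference in means of 1.07 that was 0.75 without f/f 3 and 0.70 in the 4 libraries without Xist transcripts. The ratios of Egr1 to Jund and Junb to Jund also did not overlap, with differences of 1.59 and 1.22, although for Junb f/f 1 (1.97) and Vil-KO 3 (2.02) nearly met. Without f/f 3 these differences were 1.03 and 0.74, and in the 4 libraries without Xist transcripts 0.75 and 0.45. The exact permutation p was 0.1 for each of these 3 ratios. Ier2 per Jund read was likewise higher without overlap (difference 0.91, exact permutation p = 0.1). Its log2 ratio was 0.98, 0.66 and -0.16 in f/f 1 to 3 and 1.13, 1.93 and 1.14 in Vil-KO 1 to 3. The lowest value was thus in f/f 3 and the highest in Vil-KO 2, the libraries with Xist transcripts, while f/f 1 lay close to Vil-KO 1. The ratios of Jun (0.82), Fosb (1.10), Fosl2 (0.51) and Atf3 (0.10) to Jund overlapped between genotypes, with the differences in means on the log2 scale in parentheses. Of all genes tested, 20.6% had more reads per Jund read in every Vil-KO library than in any f/f library, so such a split was common once Jund was the divisor. The ratios of Junb to Jun and of Egr1 to Fos overlapped between genotypes.

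The choice of scaling mattered for some members. On the TPM scale, which uses no TMM factor, Ier2, Fos and Egr1 were higher in every Vil-KO library than in any f/f library, as were 6.57% of all genes, and Jund was lower, as were 1.81%. On the TMM scale these shares were 5.21% and 4.7%. The TPM total includes mitochondrial transcripts, which took 19.6% of reads in f/f 3, the most of any library. Their part in these splits was not tested. Ier2 was at 227.6, 220.1 and 151.9 TPM in f/f 1 to 3 and at 240.5, 353.6 and 237.0 TPM in Vil-KO 1 to 3, whereas on the TMM scale its genotypes overlapped. Jund was at 105.6, 126.9 and 155.3 TPM in f/f 1 to 3 and at 100.6, 84.9 and 98.3 TPM in Vil-KO 1 to 3. Fos and Egr1 were without overlap on both scales. With scaling by library size alone, edgeR called Fos (log2 0.52), Egr1 (1.04) and Jund (-0.59), and 2.61% of all genes.

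The wider pathway was read from 6 lists of genes. Of the 35 other immediate early genes tested, 0 were higher and 1 was lower by the criterion (2.86%, against 3.29% of all genes), with a median log2 fold change of 0.03. The gene that was lower was Klf2, a Krüppel-like factor known from endothelium and lymphocytes, at 11.7, 4.73 and 6.22 CPM in f/f 1 to 3 and at 3.71, 3.83 and 3.22 CPM in Vil-KO 1 to 3 (log2 -1.08, SE 0.41). Its call ended without f/f 1 (-0.61), without Vil-KO 1 (-1.10) or without Vil-KO 3 (-1.01). The endothelial markers summed to between 2.30 and 3.32 CPM in f/f and between 0.82 and 2.19 CPM in Vil-KO, with 3 of the 4 under a mean of 1 CPM. The fourth, Pecam1, itself passed the criterion, lower in Vil-KO without overlap (log2 -1.33, SE 0.55), and its part in the lower Klf2 was not tested. Among those with higher means Arc came closest to the criterion, and its log2 fold change of 1.95 (SE 0.99) rested on 14.6 CPM in Vil-KO 2 against 0.242 to 3.46 CPM elsewhere, and was 0.51 without that library. Other familiar members of this list overlapped between genotypes, among them Klf4 with a log2 fold change of 0.03, Myc with -0.32, Zfp36 with 0.36 and Ier3 with 0.78. Vil-KO 2 was the highest library for both Ier3 (88.4 CPM, against 7.03 to 51.0 elsewhere) and Zfp36 (230.3 CPM, against 112.3 to 162.3 elsewhere).

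Upstream, 0 of the 29 kinases and factors passed the criterion in edgeR (0 at an unadjusted p below 0.05), against 3.29% of all genes, and their median log2 fold change was 0.08. Map2k3, the kinase that activates p38, was at 104.2, 109.5 and 111.2 CPM in f/f 1 to 3 and at 112.4, 207.5 and 144.1 CPM in Vil-KO 1 to 3, without overlap (log2 0.51, SE 0.25), and the difference was 0.25 without Vil-KO 2. Elk1, which acts with SRF at immediate early promoters, also did not overlap, with a log2 fold change of 0.53. Map2k1, the kinase that activates ERK, was lower without overlap, with a log2 fold change of -0.35 that was -0.14 without f/f 3 and -0.05 in the 4 libraries without Xist transcripts. Of all genes, 5.21% were higher and 4.7% lower without overlap. Of the 19 feedback phosphatases and inhibitors, likewise 0 passed (0 at an unadjusted p below 0.05), against 3.29% of all genes, and 1 passed by DESeq2, against 4.32% of all genes, with a median of 0.15. Counts of 0 or 1 in lists of this size are near those shares. Dusp4, a phosphatase induced by ERK activity, was at 7.98, 4.67 and 2.26 CPM in f/f 1 to 3 and at 8.39, 29.7 and 5.31 CPM in Vil-KO 1 to 3 (log2 1.52, SE 0.73), again with Vil-KO 2 far above the rest, and 0.44 without it. Dusp2 had a log2 fold change of -0.72 (SE 0.85), which turned to 0.60 without f/f 1. Dusp1, a direct immediate early phosphatase, was at 46.6, 27.7 and 28.8 CPM in f/f 1 to 3 and at 47.0, 19.2 and 12.3 CPM in Vil-KO 1 to 3, with no difference beyond the spread (log2 -0.39, SE 0.49). Of the 12 other AP-1 bZIP proteins tested, 0 passed (0 at an unadjusted p below 0.05), against 3.29% of all genes, with a median of 0.12. Mafg, a small Maf partner, had a log2 fold change of 0.40, which was 0.21 without f/f 3 and 0.25 without Vil-KO 1. Ddit3, the stress factor CHOP, had a log2 fold change of -0.36.

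Downstream, 3 of the 23 AP-1 target genes tested passed the criterion (13%, against 3.29% of all genes), 2 higher and 1 lower, with a median of 0.34 against 0.0012 over all genes. The list was chosen with earlier results of these data known, and its count was not tested against that share. Hbegf, a ligand of the EGF receptor made at wounds, was at 33.1, 29.7 and 13.8 CPM in f/f 1 to 3 and at 36.0, 61.3 and 45.2 CPM in Vil-KO 1 to 3 (log2 0.89, SE 0.36). In the 4 libraries without Xist transcripts the difference in Hbegf was 0.38 (SE 0.15), still past the criterion. That fit called 11% of all genes. The call of Hbegf ended without Vil-KO 2 (0.67), Vil-KO 3 (0.93), f/f 2 (1.01) or f/f 3 (0.60). Areg, a second EGF receptor ligand, was at 41.7, 42.0 and 15.2 CPM in f/f 1 to 3 and at 48.5, 213.7 and 45.4 CPM in Vil-KO 1 to 3 (log2 1.63, SE 0.69). Genotypes did not overlap for either ligand, but for Areg the other two Vil-KO libraries lay close to f/f 1 and f/f 2, and without Vil-KO 2 its log2 fold change was 0.51, not past the criterion. Leaving out any f/f library also ended the call of Areg, at 1.84 without f/f 1, 1.85 without f/f 2 and 1.30 without f/f 3, and in the 4 libraries without Xist transcripts it was 0.18. F3, the tissue factor that starts coagulation, was at 50.4, 43.1 and 43.0 CPM in f/f 1 to 3 and at 33.9, 28.5 and 36.4 CPM in Vil-KO 1 to 3 (log2 -0.47, SE 0.18), and was -0.40 in the 4 libraries without Xist transcripts, past the criterion in both fits. The call of F3 ended without Vil-KO 1 (-0.49), f/f 1 (-0.38) or f/f 2 (-0.50). Ccnd1 and Cd44, familiar AP-1 targets of cycling and migrating cells, overlapped, with log2 fold changes of 0.54 and -0.10.

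Heat shock genes, a second readout of stress during isolation, had a median log2 fold change of -0.14 over 15 genes tested, with 1 higher and 0 lower by the criterion (6.67%, against 3.29% of all genes). The gene that passed was Hspb1, a small heat shock protein, at 31.3 CPM in Vil-KO 2 and between 1.95 and 3.57 CPM in the other 5 libraries (log2 2.28, SE 0.96). Its call ended without Vil-KO 2, at a log2 fold change of 0.32, and also without f/f 1 (2.61), f/f 2 (2.11) or f/f 3 (2.18). The inducible Hspa1b was at 18.5, 37.0 and 6.14 CPM in f/f 1 to 3 and at 33.7, 5.38 and 20.2 CPM in Vil-KO 1 to 3, so it was lowest in the library where Fos, Junb, Egr1 and Ier2 were highest. Its log2 fold change was -0.06 (SE 0.76). Hspe1, a mitochondrial chaperone, had a log2 fold change of -0.35, which was -0.23 without Vil-KO 2 and -0.25 in the 4 libraries without Xist transcripts.

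The genes whose log2 CPM over the 6 libraries was most like the mean profile of the 9 members were Fam98c (Pearson r = 0.991), Emp1 (0.981), Slc16a11 (0.960), Lzts2 (0.951) and Cdk18 (0.951). These are descriptions over 6 libraries that share the same scaling, with high values in Vil-KO 1 and Vil-KO 2. Emp1, an epithelial membrane protein, was at 89.4, 112.6 and 105.3 CPM in f/f 1 to 3 and at 369, 294 and 112.3 CPM in Vil-KO 1 to 3. Within the pathway lists the closest were Crtc2, a CREB coactivator, at r = 0.889, Spred2, an inhibitor of ERK signalling, at 0.716 and Ereg, an EGF receptor ligand, at 0.714.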

How the data were processed

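RNA-seq libraries of colon IECs from DSS-treated mice, 3 Nsd2 f/f and 3 Nsd2 Vil-KO, were grouped by the sample labels. The authors deposited raw counts of reads per Ensembl gene, after trimming and alignment with HISAT2 to mm10 (GRCm38). The methods name StringTie for FPKM values and a directional library kit. The program that gave the deposited counts, and whether it used strand, is not given in the sources used here. The kit named in the labels differs from that in the methods. Gene positions, exon lengths and TPM rest on GENCODE vM21, in which 99.5% of IDs were found. The test was run in edgeR 4.0.16 (R 4.3.3) with filterByExpr (14650 genes), TMM factors, the quasi-likelihood test with robust estimation, no covariates and Benjamini-Hochberg adjustment over all genes tested. Fold changes are Vil-KO over f/f. Alternatives used limma 3.58.1 and DESeq2 1.42.0, among others. The scripts were tested on simulated data. Within lists, the genes named were those past the criterion and the smallest p in each direction. Dusp1, Elk1, Hspa1b, Klf4, Myc, Zfp36, Ier3, Ccnd1 and Cd44 were added with their values in view. The members and lists were chosen with earlier results of these data known. The floor of 3 counts lay at 0.146 to 0.242 CPM per library and covers counting error only.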

Additional observations from a re-analysis of the deposited data

How the results depend on the processing

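Of the members, Fos (0.30 to 0.58 on the log2 scale), Junb (0.11 to 0.92), Egr1 (0.45 to 1.34, past the criterion under 12 of 17) and Jund (-0.95 to -0.22) kept their direction under all 17 alternatives. The signs of Jun and Atf3 did too, but Jun came down to 0.030 without Vil-KO 1 and Atf3 to -0.0090 without Vil-KO 2. The causes of the changes below were not tested. With 3 libraries a group, single libraries moved many values. Fosl1 and 9 genes of the lists (Egr2, Egr3, Nr4a3, Batf, Batf3, Nrl, Mmp10, Krt6a and Hspb8) had too few counts to be tested. The same-numbered libraries had correlations of 0.322, -0.35 and -0.108. These values, from 3 libraries a group, cannot tell whether the numbers pair the libraries. With a replicate block the genes past the criterion numbered 303 (2.07%) in place of 482 (3.29%), and heat shock genes 0. The median of the members was then 0.30, while Egr1 was still the member called. Under the block Klf2 (-0.98), F3 (-0.47) and Hspb1 (1.39) lost their calls and Arc (1.81) gained one, and 1 other immediate early gene and 2 AP-1 targets passed.

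With library size only, Fosl2 was at 0.050. The criterion was then passed by 382 genes (2.61%), 3 members, 0 other immediate early genes, 1 kinase or factor upstream and 0 AP-1 targets. With limma-voom and quality weights, Fosl2 was at 0.33. The criterion was passed by 1421 genes (9.7%), 3 other immediate early genes, 2 bZIP proteins and 0 heat shock genes. The member called was Jun (0.38) in place of Egr1 (0.46). With DESeq2, 633 genes (4.32% of those tested), 2 other immediate early genes, 1 feedback gene, 6 AP-1 targets and 0 heat shock genes passed. Hspb1 was given no p in that fit. Without the filter on low counts, 861 genes (3.27%), 2 AP-1 targets and 0 heat shock genes passed. F3 (-0.46), Areg (1.63) and Hspb1 (2.27) then lost their calls. In the 4 libraries without Xist transcripts, Fosl2 was at 0.42 and Ier2 at -0.0073. The criterion was then passed by 1646 genes (11%) and 4 members (Fos, Fosl2, Jun and Jund). It was also passed by 4 other immediate early genes, 1 feedback gene, 2 bZIP proteins and 0 heat shock genes. With presence of Xist as a covariate, 1145 genes (7.82%) and 3 members (Fos, Egr1 and Jund) passed, and the members' median was 0.30. Also passing were 1 kinase or factor upstream, 1 feedback gene and 1 bZIP protein. The bZIP protein was Mafg (0.42).

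With each library left out in turn, Fosl2 lay between -0.28 and 0.19, Ier2 between -0.073 and 0.60, Fosb between -0.077 and 1.10, and Dusp2 between -1.18 and 0.60. The members' median lay between 0.030 (without Vil-KO 1) and 0.58 (without Vil-KO 3). The criterion was passed by 0 members without Vil-KO 2 or f/f 3 and by 1 member otherwise, which was Jund without f/f 1. It was passed by 323 to 769 genes (2.14% to 5.08%) and by 0 to 1 kinases or factors upstream. It was also passed by 0 to 1 feedback genes, 0 to 5 AP-1 targets and 0 to 2 heat shock genes.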
